A study of Mus musculus with 6 samples.

Results

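Immunoglobulin variable segments are the germline gene pieces that encode most of the antigen-binding part of an antibody chain. The members described here are all genes of the heavy (Ighv), kappa light (Igkv) and lambda light (Iglv) variable families with a value above 0 in at least 1 library, taken from the named genes of the deposited tables. They number 264 of 348 listed segments, in a table of 40842 named genes, and comprise 135 of 183 heavy, 126 of 162 kappa and 3 of 3 lambda segments. The RNA came from whole lung of wild-type female C57BL/6N mice. The control group comprised 3 untreated libraries (control 1 to 3), and the irradiated group comprised 3 libraries (irradiated 1 to 3) from mice given 1 dose of 20 Gy of 9 MeV electrons; both are labelled as the time point of 100 days. The labels give neither the exposed region of the body nor the age of the mice. They do not say whether each library is 1 mouse, so a p-value here sets a difference only against the variation among libraries, part or all of which may be technical.

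A developing B cell joins 1 variable segment to a joining segment (with a diversity segment between them in the heavy chain) and then makes that chain with a constant region. As a rule, each B cell and its descendants therefore express 1 heavy and 1 light variable segment. Plasma cells, the antibody-secreting descendants of B cells, hold far more antibody mRNA per cell than resting B cells. In bulk tissue the FPKM of a segment sums over all cells that use it, and fewer cells of a type cannot be told apart from less RNA per cell. FPKM counts fragments per kilobase of transcript, scaled to the mapped fragments of the library.

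The germline sequences of the 5 segments that led the most uneven libraries are printed to show which segments the results turn on. They were matched by symbol to GENCODE M21 transcripts (GRCm38), which hold 262 of the 264 members. Each line gives the last 300 bases of the transcript, 5′ to 3′. Capitals mark the stretch from the conserved cysteine codon, after the tyrosine-tyrosine or tyrosine-phenylalanine codons, to the end of the segment. This stretch holds the germline start of the third complementarity-determining region, which begins after the cysteine. Igkv1-110 and Ighv1-54 led in control 2, and Igkv14-111, Ighv1-18 and Igkv3-4 led in irradiated 1. They are reference sequences and not the rearranged or mutated sequences of the cells.
Igkv1-110: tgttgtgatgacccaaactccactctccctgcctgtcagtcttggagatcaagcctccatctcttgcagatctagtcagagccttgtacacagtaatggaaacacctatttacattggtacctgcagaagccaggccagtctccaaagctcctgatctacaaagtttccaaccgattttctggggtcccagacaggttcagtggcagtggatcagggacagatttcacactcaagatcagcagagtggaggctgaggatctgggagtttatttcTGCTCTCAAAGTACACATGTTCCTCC
Ighv1-54: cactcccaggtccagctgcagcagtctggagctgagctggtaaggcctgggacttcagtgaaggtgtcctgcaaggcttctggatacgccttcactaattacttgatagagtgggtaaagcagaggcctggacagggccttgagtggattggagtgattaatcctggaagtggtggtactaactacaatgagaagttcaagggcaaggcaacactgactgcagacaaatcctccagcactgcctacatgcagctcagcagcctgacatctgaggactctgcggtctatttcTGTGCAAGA
Igkv14-111: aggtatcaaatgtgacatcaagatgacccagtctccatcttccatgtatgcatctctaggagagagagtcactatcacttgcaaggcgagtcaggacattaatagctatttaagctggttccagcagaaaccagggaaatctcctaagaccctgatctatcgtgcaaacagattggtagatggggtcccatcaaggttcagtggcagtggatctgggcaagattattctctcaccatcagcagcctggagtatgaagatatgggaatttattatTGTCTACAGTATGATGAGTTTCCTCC
Ighv1-18: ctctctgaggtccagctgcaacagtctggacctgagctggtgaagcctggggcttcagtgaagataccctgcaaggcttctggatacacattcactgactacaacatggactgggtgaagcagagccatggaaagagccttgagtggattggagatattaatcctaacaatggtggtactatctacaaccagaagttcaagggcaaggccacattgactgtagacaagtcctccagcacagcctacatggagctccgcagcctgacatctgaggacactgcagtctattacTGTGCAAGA
Igkv3-4: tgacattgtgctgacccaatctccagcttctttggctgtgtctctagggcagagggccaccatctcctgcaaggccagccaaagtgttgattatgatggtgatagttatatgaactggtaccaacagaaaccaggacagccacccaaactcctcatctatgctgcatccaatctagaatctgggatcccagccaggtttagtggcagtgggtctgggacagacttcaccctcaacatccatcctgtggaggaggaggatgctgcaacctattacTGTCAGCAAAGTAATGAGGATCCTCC

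In the coordinates of the files (GRCm39), Igkv1-110 lies at chromosome 6, 68247511 to 68248249, and Igkv14-111 lies close to it at 68233388 to 68233853. Igkv3-4 lies at the other end of the kappa locus, at chromosome 6, 70648773 to 70649361, near the joining segments. Ighv1-54 lies at chromosome 12, 115157295 to 115157588, and Ighv1-18 at chromosome 12, 114646252 to 114646545. Each value is for the whole gene row of a segment, with a median span of 444.5 bases over the members. In 2 kappa members, Igkv2-137 and Igkv14-134-1, the row instead spans over 1000000 bases (3171119 and 2787169), in Igkv2-137 to the end of the kappa constant region Igkc. Together these 2 rows held 1.97% to 2.93% of the summed FPKM of a library.

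Many variable segments are near copies of each other, so their reads can be split between them. Over the last 280 bases, 113 of the 262 matched segments had another segment of the same locus with at least 95% identity, and the pair Ighv1-62-2 and Ighv1-71 was identical. Of the leading segments, Ighv1-18 was closest to Ighv1-26 (97.1% identity, 8 base differences) and Igkv1-110 to Igkv1-117 (96.8%, 9 differences). Igkv3-4 (93.2%, closest to Igkv3-3), Ighv1-54 (92.5%, closest to Ighv1-63) and Igkv14-111 (90.7%, closest to Igkv14-126) were more distinct. Igkv5-43, the segment next in rank in control 2, differed from Igkv5-45 by 3 bases (98.9%), so its level is uncertain. The last 90 bases of the close pair Ighv1-18 and Ighv1-26 show how alike such copies are.
Ighv1-18: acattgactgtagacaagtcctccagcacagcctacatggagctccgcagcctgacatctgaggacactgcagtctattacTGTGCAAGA
Ighv1-26: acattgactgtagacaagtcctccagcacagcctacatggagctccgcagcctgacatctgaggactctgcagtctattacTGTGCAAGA

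In most libraries the variable segment RNA was spread over many segments, and in control 2 it was concentrated in very few. The number of segments needed to reach 50% of the summed FPKM was 24, 3 and 23 in the 3 controls, against 13, 25 and 24 in the 3 irradiated libraries, each in the order of their numbers. The groups overlapped, and the mean was 16.7 ± 11.8 in controls and 20.7 ± 6.66 in irradiated libraries (SD, n = 3; difference 4, exact permutation test, two-sided p = 0.60). With 3 libraries against 3 this test cannot give a p under 0.10. To reach 90% of the sum took 92, 55 and 89 segments in the controls and 69, 96 and 92 in the irradiated libraries (78.7 ± 20.6 against 85.7 ± 14.6, exact permutation p = 0.60). Control 2 decided the direction of both differences: without it the irradiated libraries took 2.83 fewer segments for 50% and 4.83 fewer for 90%. For 50% the difference was 7.67 without control 1, 7.17 without control 3, 7.83 without irradiated 1, 1.83 without irradiated 2 and 2.33 without irradiated 3, and for 90% it was 13.7, 12.2, 15.3, 1.83 and 3.83.

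**Figure D1:**
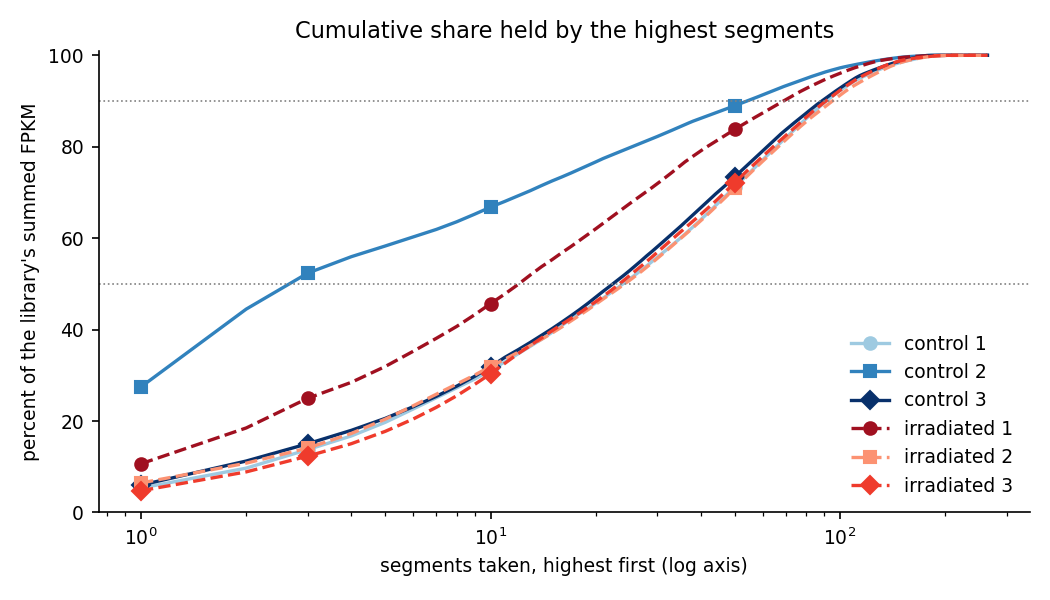
Cumulative percent of a library's summed variable segment FPKM (y axis) against the number of segments taken from the highest down (x axis, log scale), 1 line per library, solid for controls and dashed for irradiated; dotted lines mark 50% and 90%. Control 2 reaches 50% with 3 segments and irradiated 1 with 13, while the other 4 libraries run together and reach it with 23 to 25.

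The highest segment of a library held 5.33% (Igkv9-120), 27.5% (Igkv1-110) and 5.99% (Ighv1-76) of the sum in the controls, against 10.6% (Igkv14-111), 6.44% (Igkv3-9) and 4.75% (Igkv9-120) in the irradiated libraries. The mean share was 12.9% ± 12.6 in controls and 7.28% ± 3.04 in irradiated libraries (exact permutation p = 0.70), and without control 2 the difference changed sign to 1.62 percentage points. Within the heavy locus, Ighv1-54 alone held 51.1% of the heavy sum in control 2 and Ighv1-18 held 20.2% in irradiated 1, against 6.23% to 17.8% for the highest heavy segment in the other 4 libraries. Within the kappa locus, Igkv1-110 held 42.7% of the kappa sum in control 2 and Igkv14-111 held 18.1% in irradiated 1, against 7.79% to 10.5% elsewhere. The uneven shares were thus seen in the heavy and in the kappa locus of the same 2 libraries. The inverse Simpson index, the number of equally abundant segments that would give the same unevenness, was 61.4, 8.65 and 56.9 in the controls and 30.5, 59.0 and 63.5 in the irradiated libraries.

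The amount of variable segment RNA also differed widely between libraries of the same group. The summed FPKM was 254, 1099.5 and 211 in controls, against 3323, 282 and 640.3 in irradiated libraries. Irradiated 1 was the highest and control 2 the second highest, so the groups overlapped, and the highest library was 15.8 times the lowest. On the log2 scale the sum was 8.60 ± 1.31 in controls and 9.72 ± 1.81 in irradiated libraries, a difference of 1.12 (exact permutation p = 0.50). This difference fell to 0.13 without irradiated 1 and was 0.67 without control 3, 1.87 without control 2 and 1.91 without irradiated 2. Without both control 2 and irradiated 1, left out after their values were seen, it was 0.88, with irradiated 2 and 3 above control 1 and 3. The segments made up 0.0656% to 0.313% of the FPKM of all named genes in the controls and 0.0946% to 1.08% in the irradiated libraries.

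**Figure D2:**
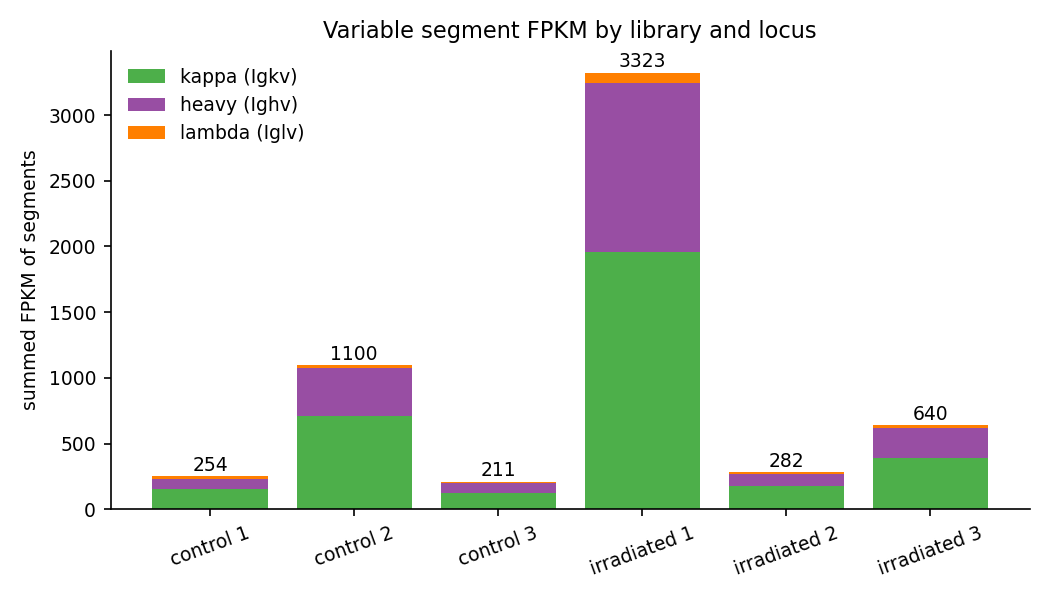
Summed FPKM of variable segments (y axis) in each library (x axis), stacked by locus, with the total above each bar. Irradiated 1 reaches 3323 FPKM, control 2 follows with 1099.5, and kappa segments make up most of every bar.

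Kappa segments held most of the sum in every library and heavy segments most of the rest. The heavy sums were 77.9, 366 and 71.0 FPKM in controls, against 1288, 94.3 and 227 FPKM in irradiated libraries (log2 difference 1.26, exact permutation p = 0.50). The kappa sums were 156, 708 and 128 FPKM against 1956, 174 and 389.9 FPKM (1.08, exact permutation p = 0.50). The lambda sums were 19.8, 25.4 and 12.1 FPKM against 79.6, 14.2 and 23.6 FPKM (0.71, exact permutation p = 0.50). Without irradiated 1 these differences were 0.21, 0.11 and 0.0037. Despite the range in amount, the heavy share of the sum varied little. It was 30.7%, 33.3% and 33.7% in the controls and 38.8%, 33.4% and 35.4% in the irradiated libraries (exact permutation p = 0.20). The lambda share was lowest in control 2 (2.31%) and irradiated 1 (2.39%) and 3.69% to 7.78% in the other 4 libraries. Mice are known to use kappa chains in most of their antibodies.

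The lambda locus has only 3 segments, and Iglv1 led in all 6 libraries. Iglv1 was at 11.1, 18.3 and 7.98 FPKM in controls, against 69.2, 8.80 and 17.1 FPKM in irradiated libraries, with only irradiated 1 far from the rest. Iglv2 was at 3.87, 3.08 and 1.33 FPKM against 4.44, 2.73 and 2.56 FPKM. Iglv3 was at 4.81, 4.02 and 2.83 FPKM against 5.87, 2.65 and 3.98 FPKM. In Iglv2 and Iglv3 irradiated 1 was also the highest library, but by little.

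In control 2 the high segments were few. Igkv1-110 was at 10.3, 302 and 4.49 FPKM in controls, against 115, 9.02 and 22.1 FPKM in irradiated libraries, high in control 2 and, at a lower level, in irradiated 1. Ighv1-54 was at 1.07, 187 and 1.03 FPKM in controls, against 9.57, 0.725 and 1.69 FPKM in irradiated libraries, high in control 2 alone. Igkv5-43, the next in control 2, was at 3.79, 86.6 and 2.84 FPKM in controls, against 95.3, 4.24 and 8.05 FPKM in irradiated libraries. These 3 segments held 52.4% of the sum of control 2. Igkv8-19 was at 1.30, 39.6 and 1.27 FPKM in controls, against 1.85, 0.681 and 6.32 FPKM in irradiated libraries, again high in control 2 alone. The heavy segments next in control 2 were Ighv1-64, at 1.10, 21.4 and 1.55 FPKM against 45.1, 3.28 and 17.2 FPKM, and Ighv5-4, at 0.347, 17.0 and 1.04 against 6.48, 2.85 and 1.93 FPKM. The same library was thus high in segments of both loci, but irradiated 1 exceeded it in Igkv5-43 and Ighv1-64. With the 3 highest segments of each library left out, the sums were 219, 524 and 179 FPKM in controls, against 2493, 242 and 561 FPKM in irradiated libraries, so that irradiated 3 lay above control 2.

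In irradiated 1 the excess was spread over more segments. Igkv14-111 was at 2.32, 3.08 and 3.49 FPKM in controls, against 354, 5.47 and 26.4 FPKM in irradiated libraries. Ighv1-18 was at 0.889, 1.07 and 1.35 FPKM in controls, against 260.3, 2.27 and 6.30 FPKM in irradiated libraries. In these 2 segments all 3 irradiated libraries lay above the controls, irradiated 2 by little. Igkv3-4 was at 2.42, 1.80 and 3.37 FPKM in controls, against 216, 1.98 and 7.50 FPKM in irradiated libraries, where irradiated 2 lay within the controls. Igkv3-10 was at 1.54, 1.62 and 0.499 FPKM against 116, 2.77 and 2.57 FPKM, and Ighv1-39 at 1.63, 3.40 and 2.31 against 109.6, 1.03 and 4.62 FPKM. Ighv1-81 was at 2.73, 2.62 and 1.52 FPKM against 71.1, 6.27 and 10.6 FPKM, with all irradiated libraries above the controls. Irradiated 1 was the highest library for 146 of the 264 members, against 36 for irradiated 3, 35 for control 2, 21 for control 1, 19 for irradiated 2 and 7 for control 3. The median member was at 0.246, 0.421 and 0.194 FPKM in controls, against 1.47, 0.345 and 0.678 FPKM in irradiated libraries.

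**Figure D3:**
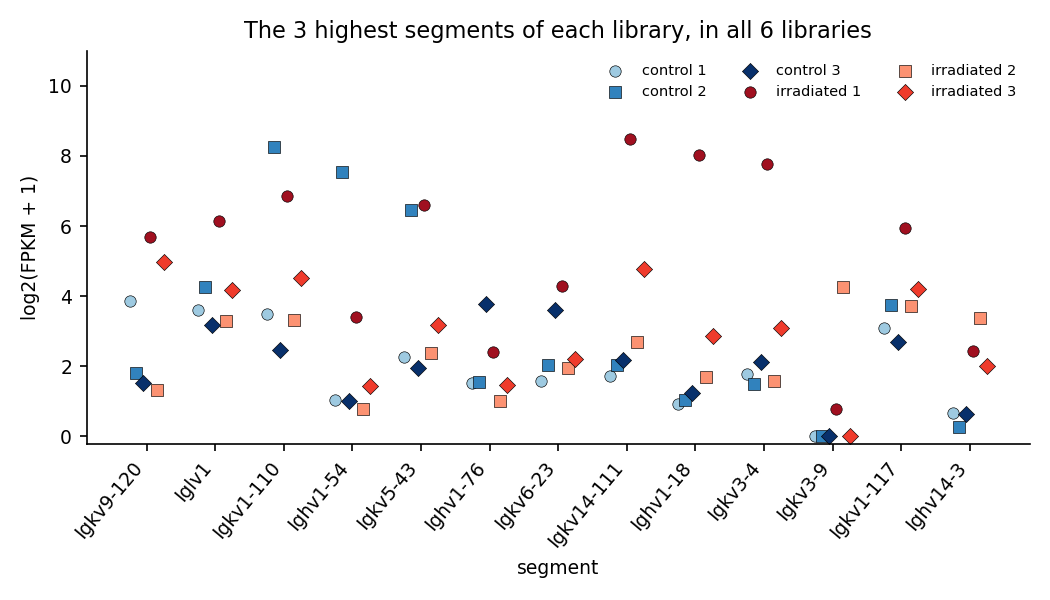
Log2(FPKM + 1) (y axis) of each segment that was among the 3 highest of any library (x axis), with 1 point per library, blue for controls and red for irradiated. Ighv1-54 stands out in control 2 alone (187 FPKM), Ighv1-18 in irradiated 1 (260.3 FPKM) and Igkv3-9 in irradiated 2 (18.2 FPKM).

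Segments that were high in a single library were common. In all, 34 members were at 1 FPKM or more and at least 10 times above the other 5 libraries in 1 library: 4 in control 2, 27 in irradiated 1, 2 in irradiated 2, 1 in irradiated 3 and 0 in control 1 and in control 3. Over all named genes 42 met this rule, so that variable segments were 34 of the 42, and in irradiated 1 they were 27 of 29. The rule was set after the values were seen. Ighv5-15 in irradiated 1 was 135 times the next library (50.7 against 0.376 FPKM). Igkv3-9 was listed at 0 in all 3 controls and in irradiated 3, and was at 0.732 FPKM in irradiated 1 and 18.2 FPKM in irradiated 2, where it was the highest of all segments. Ighv1-76, the highest segment of control 3, was at 1.88, 1.91 and 12.6 FPKM in controls, against 4.35, 1.00 and 1.74 FPKM in irradiated libraries. Igkv6-23, the highest kappa segment of that library, was at 2.01, 3.10 and 11.1 FPKM against 18.6, 2.84 and 3.64 FPKM. Igkv9-120 led in both control 1 and irradiated 3, at 13.5, 2.52 and 1.86 FPKM in controls, against 50.8, 1.51 and 30.4 FPKM in irradiated libraries. The highest segments thus differed from library to library within a group.

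Beneath these peaks the libraries used the segments in a similar order. Across the 264 segments, Spearman's rho between the shares of a pair of libraries was 0.73 to 0.84 over the 15 pairs, lowest between control 2 and irradiated 1 and highest between control 1 and control 3. Segments are not independent replicates, and many share reads, so this is a description. The part of the distribution common to a pair, the sum of the smaller of both shares over all segments, was 64.0% to 71.1% between any of control 1, control 3, irradiated 2 and irradiated 3. It was 51.2% to 58.0% between irradiated 1 and these 4, and 31.8% to 37.5% between control 2 and the other 5. The kappa segment Igkv1-117 was among the 3 highest kappa segments in control 1, control 3 and irradiated 2, and the heavy segment Ighv1-26 among the 3 highest heavy segments in control 3 and in all irradiated libraries. Igkv1-117 was at 7.60, 12.3 and 5.51 FPKM in controls, against 60.5, 12.2 and 17.4 FPKM in irradiated libraries. Ighv1-26 was at 2.88, 8.34 and 3.26 FPKM against 86.0, 3.84 and 13.5 FPKM, and the values of irradiated 2 lay within the controls in both segments. Ighv3-6, the highest heavy segment of control 1, was at 4.85, 6.50 and 4.47 FPKM against 30.9, 3.83 and 7.90 FPKM, while the heavy segments next in control 1 were Ighv1-75, at 4.84, 0.838 and 0.250 against 13.1, 1.07 and 1.32 FPKM, and Ighv8-12, at 2.92, 1.35 and 1.06 against 10.8, 2.72 and 2.68 FPKM. The kappa segment Igkv6-15 was at 4.48, 9.33 and 6.18 against 27.3, 8.19 and 4.48 FPKM.

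More segments were listed above 0 in the irradiated libraries, with 198, 198 and 184 in the controls and 228, 210 and 204 in the irradiated libraries. Every irradiated library lay above every control (193 ± 8.08 against 214 ± 12.5, SD, n = 3; exact permutation p = 0.10, the smallest this design allows). Depth differed: irradiated 2 was the deepest library, at an implied 10.4 Gb of aligned sequence against 5.10 to 6.77 Gb in the other 5; its part in the count was not tested. With a minimum of 1 FPKM the counts were 79, 98 and 66 against 141, 81 and 114, and the groups overlapped (exact permutation p = 0.20). Of the members, 152 were listed above 0 in all 6 libraries and 33 in a single library. The RefSeq gene table (GRCm38.p6) calls 50 of the 264 members pseudogenes, against 123 of the 348 listed, and these 50 held 0.43% to 1.98% of the summed FPKM of a library.

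No segment was called between the groups. Of the 264 members, 136 averaged 1 FPKM or more across libraries and entered the fit of all such genes (limma on log2(FPKM + 1), Benjamini-Hochberg adjusted), and 0 passed an adjusted p of 0.05, against 25 of 13908 genes, or 0.18%. At an unadjusted p under 0.05, 20 of the 136 were higher and 0 lower in irradiated libraries, while 7.41% of all genes tested were higher and 10.3% lower. A segment could enter through the group where it was high, so this count is no support for a difference. Over all 264 members the median log2 change was 0.31, and 209 were positive, against a median of 0.00095 over the 31967 genes above 0 in at least 1 library. Without control 2 and irradiated 1 the median over the members was 0.11. In 40 of the 264 members (15.2%) the 3 irradiated libraries lay above the 3 controls, against 8.26% of the 31967 genes, and in 3 (1.14%) they lay below, against 8.76%. Irradiated 2 and 3 lay above control 1 and 3 in 70 members (26.5%), against 17.8% of genes. Members share the RNA of the same B lineage cells within a library and do not vary independently, so these shares describe the 6 libraries.

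The member closest to the threshold was Ighv14-3, with 0.585, 0.204 and 0.555 FPKM in controls, against 4.37, 9.37 and 3.02 FPKM in irradiated libraries. All irradiated libraries lay above all controls (log2 change 2.08 ± 0.34, limma adjusted p = 0.0737). It passed without irradiated 3 (limma adjusted p = 0.0429, with 0.853% of all genes called), and its nearest copy is Ighv14-1 at 95.7% identity. Ighv1-80 was at 0.903, 0.751 and 1.13 FPKM in controls, against 16.7, 1.41 and 15.8 FPKM in irradiated libraries, and Igkv3-12 at 2.81, 2.90 and 3.06 against 14.4, 3.74 and 15.0 FPKM. Both were high in irradiated 1 and 3 alone, and both passed without irradiated 2 (limma adjusted p = 0.00711 and 0.00781, with 0.0215% of all genes called). The next smallest p values with all 6 libraries belonged to the heavy segments Ighv1-50 (limma adjusted p = 0.126) and Ighv5-16 (0.130) and the kappa segments Igkv6-13 (0.139) and Igkv2-109 (0.164), all with positive changes of 0.76 to 1.37. Among negative changes the smallest p values belonged to Igkv4-86 (limma adjusted p = 0.340), Ighv1-58 (0.539), Ighv1-76 (0.665), Igkv8-16 (0.685) and Ighv2-9 (0.692). Ighv1-58, Igkv8-16 and Ighv2-9 were high in control 2 alone, at 8.94, 11.1 and 7.04 FPKM, against 0.913 FPKM or less in the other 5 libraries. Igkv4-86 was at 0.747, 0.546 and 5.32 FPKM in controls, against 0.198, 0.343 and 0.114 FPKM in irradiated libraries. Just inside the filter of 1 FPKM lay Igkv4-70 (mean 1.03) and Igkv5-37 (1.02), and just outside it Ighv13-2 (0.965) and Ighv1-12 (0.927).

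The segments fall into 15 heavy, 18 kappa and 3 lambda families, as their symbols give them. Ighv1, the large J558 family with 72 members here, held 55.2%, 76.1% and 60.3% of the heavy sum in the controls and 69.7%, 49.2% and 64.1% in the irradiated libraries. Igkv1 held 17.1%, 48.4% and 12.0% of the kappa sum in the controls and 9.83%, 16.1% and 12.3% in the irradiated libraries. Igkv3 held 7.75%, 2.04% and 9.83% against 20.6%, 20.2% and 8.45% (exact permutation p = 0.20), with a different leading segment in irradiated 1 (Igkv3-4) and in irradiated 2 (Igkv3-9). Ighv14 reached 15.0% of the heavy sum in irradiated 2, against 1.76% to 6.14% in the other 5 libraries. In 0 of the 36 families did the shares of the groups separate.

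Along the loci, the 67 heavy segments nearest to the joining segments held 45.6%, 26.6% and 42.0% of the heavy sum in the controls and 52.9%, 56.2% and 43.4% in the irradiated libraries (exact permutation p = 0.20), and the groups overlapped. For the 62 nearest kappa segments the shares were 43.9%, 39.1% and 53.2% against 51.1%, 56.3% and 49.1% (exact permutation p = 0.30). Kappa segments lie in both orientations, and the 53 on the plus strand, the strand of the kappa constant region, held 41.7% to 57.8% of the kappa sum in the controls and 51.0% to 63.5% in the irradiated libraries. The segments named above lie far apart: Ighv14-3 lies 631 kb from the heavy joining segments and Ighv1-80 lies 2483 kb away, while Igkv3-4 lies 51.2 kb and Igkv14-111 lies 2467 kb from the kappa joining segments.

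**Figure D4:**
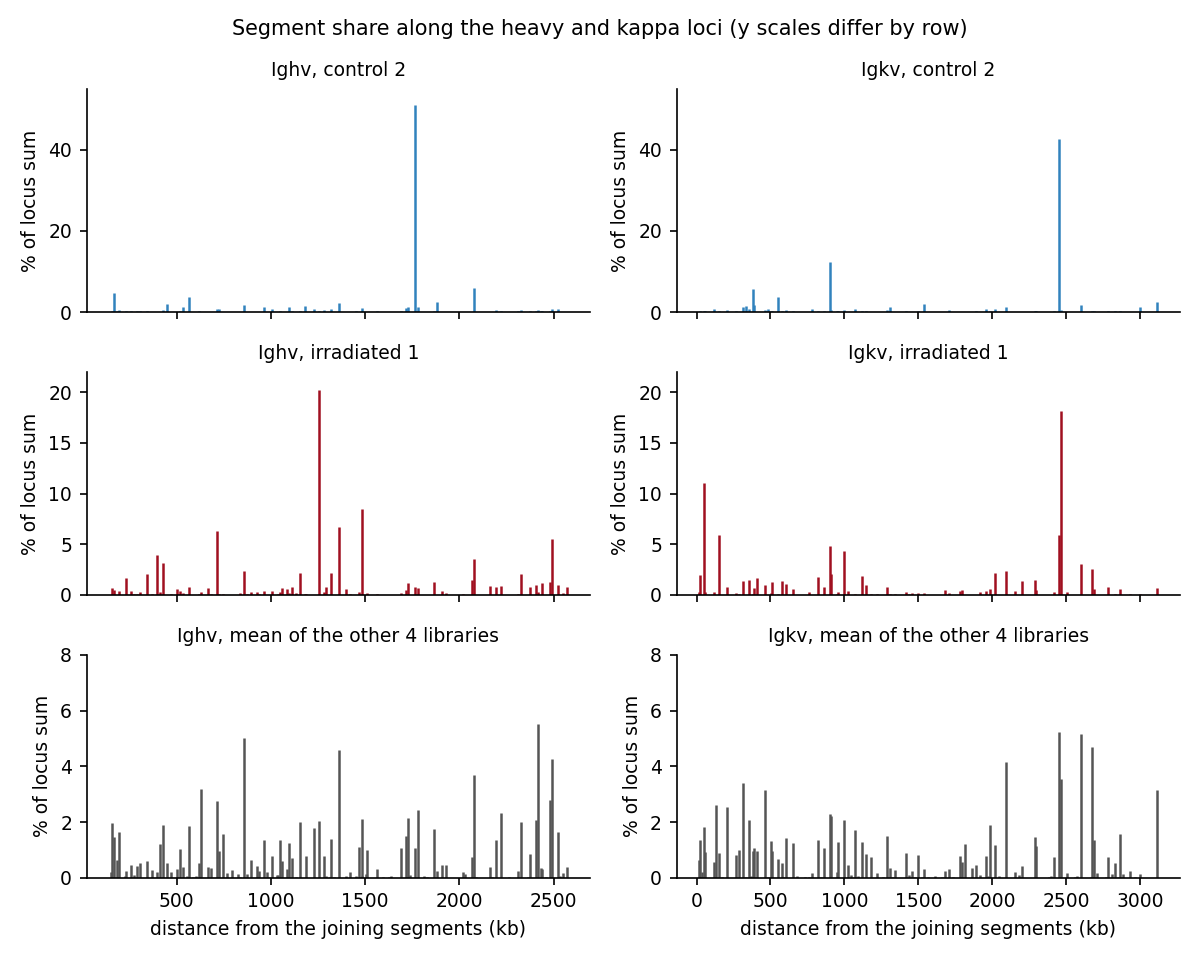
Percent of the heavy (left) or kappa (right) sum held by each segment (y axis, scales differ by row) against its distance from the joining segments in kb (x axis), in control 2, irradiated 1 and as the mean of the other 4 libraries; the 2 kappa rows over 1000000 bases long are left out. Control 2 has 1 heavy segment at 51.1% and 1 kappa segment at 42.7%, and the other 4 libraries spread over the whole length of both loci.

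Segments known from natural antibodies of B-1 cells, a self-renewing B cell type of body cavities, ranged from 0 to 7.37 FPKM. Ighv11-2 and Igkv14-126 form a known antibody to phosphatidylcholine, as do Ighv12-3 and Igkv4-91, and Ighv7-1 and Igkv7-33 form the T15 antibody to phosphorylcholine. Ighv11-2 was at 0.0298, 0.622 and 0.665 FPKM in controls, against 0.845, 0.562 and 1.35 FPKM in irradiated libraries, and its partner Igkv14-126 was at 1.07, 2.16 and 0.617 against 1.29, 0.515 and 2.50 FPKM. Ighv12-3 was at 0.506, 0.274 and 0.177 FPKM against 1.41, 0.130 and 0 FPKM, and Igkv4-91 at 1.18, 6.27 and 1.32 against 7.37, 2.06 and 0.641 FPKM. Ighv7-1 was at 0.178, 0.484 and 0 FPKM against 0.747, 0.135 and 0.966 FPKM. The RefSeq gene table calls Ighv7-1 a pseudogene, which conflicts with its known use in an antibody. The groups overlapped in all 5, and 0 of the 2 that passed the filter were called (0 at an unadjusted p under 0.05 with limma). Igkv7-33 was listed at 0 in all 6 libraries and is no member.

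The joining segments and constant regions, which follow the variable segment in the same transcript, were highest in irradiated 1 in 10 of 12 and 7 of 12 cases. Irradiated 1 and control 2 were the 2 highest libraries in 6 of the 12 joining segments and 8 of the 12 constant regions, and irradiated 3 lay above control 2 in 6 and 4. Igkc, the kappa constant region, was at 197, 858 and 147 FPKM in controls, against 2195, 193 and 493 FPKM in irradiated libraries. The heavy joining segment Ighj2 was at 18.5, 99.2 and 11.7 FPKM against 273, 20.1 and 47.4 FPKM, and the kappa joining segment Igkj1 at 34.3, 291 and 21.4 against 406, 34.4 and 60.4 FPKM, all with irradiated 1 and control 2 highest. In the kappa joining segment Igkj2, irradiated 3 lay above control 2, at 32.0, 87.9 and 31.4 FPKM against 557, 39.7 and 98.8 FPKM. The rows of these 3 joining segments are 48, 38 and 39 bases long, so their levels are uncertain. Of the 12 joining segments 10 had positive changes, and 0 of 12 were called (0 at an unadjusted p under 0.05).

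The heavy constant regions in use differed between the libraries as well. Ighm, the constant region of IgM, held 64.3%, 31.2% and 71.6% of the heavy constant FPKM in controls, against 17.5%, 43.4% and 32.3% in the irradiated libraries. Ighg2b, of IgG2b, was at 1.67, 229 and 0.891 FPKM in controls, against 151, 8.10 and 67.6 FPKM in irradiated libraries, and held 54.1% in control 2. Ighg2c, of IgG2c, was at 8.65, 5.64 and 2.04 FPKM in controls, against 721, 20.8 and 25.2 FPKM in irradiated libraries, and held 60.1% in irradiated 1. Ighg1, of IgG1, was at 0.519, 1.12 and 0.280 FPKM against 62.2, 3.68 and 16.7 FPKM, with all irradiated libraries above the controls (log2 change 3.44 ± 0.93, limma adjusted p = 0.171). Of the 12 constant regions 11 were tested and 0 called. At an unadjusted p under 0.05 with limma 2 were higher, Ighg1 and Ighg2c, beside 7.41% of all genes tested. All irradiated libraries also lay above the controls in Ighg2c and, at low values, in Ighe, as in 8.26% of the 31967 genes. The groups overlapped in the other constant regions. The row of Igha, of IgA, spans 2753751 bases and overlaps all 135 heavy members, so its level is uncertain.

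Across the libraries, 2 of 10 plasma cell genes, Jchain and Tnfrsf17, had the order of the variable segment sum, as did 0 of 12 B cell genes. Of the constant regions 1 of 12 had this order, Igha, and Igkc did not. The row of Igha overlaps all 135 heavy members, so its level is not separate from theirs. Of the joining segments 2 of 12 had this order. An order can turn on near ties, and the share of all genes with this order was not computed. These counts therefore only describe the 6 libraries. Jchain, which links IgA and IgM into polymers and marks antibody-secreting cells, was at 7.38, 65.4 and 7.26 FPKM in controls, against 139.7, 12.2 and 36.7 FPKM in irradiated libraries. Jchain ranged over 19.2 times against 15.8 times for the sum. Sdc1, which encodes syndecan-1, and Xbp1, a regulator of secretory capacity, are on the plasma cell list and did not have that order. Which cells of the whole lung held their RNA was not tested. Sdc1 was at 72.9, 74.6 and 70.8 FPKM against 70.9, 54.7 and 68.0 FPKM, and Xbp1 at 66.8, 83.7 and 66.2 against 73.3, 62.7 and 59.0 FPKM. Both named B cell surface genes ranged less than Jchain: Cd79a, a signalling chain of the B cell receptor, was at 32.4, 36.6 and 26.7 FPKM against 26.0, 14.2 and 30.7 FPKM, a range of 2.59 times. Ms4a1, which encodes the B cell surface protein CD20, was at 8.46, 9.10 and 5.91 FPKM against 7.03, 3.84 and 8.93 FPKM. Irradiated 1, with the highest sum, thus lay below control 1 in Cd79a and Ms4a1. Of 12 B cell genes 11 had negative changes (median log2 change −0.39) and 0 of 12 were called; of 10 plasma cell genes 7 had positive changes (median 0.13) and 0 of 9 tested were called, with 0 in either list at an unadjusted p under 0.05. The gene of the plasma cell receptor BCMA, Tnfrsf17, was low, at 0.0888 FPKM in control 3 to 0.542 FPKM in irradiated 1, in the library order of the sum.

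**Figure D5:**
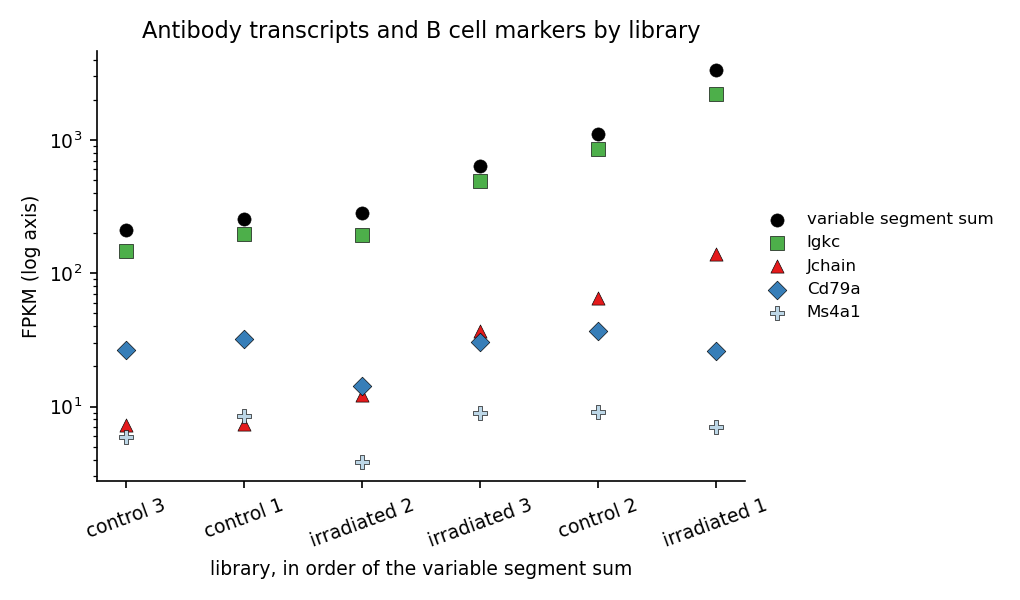
FPKM (y axis, log scale) of the variable segment sum, Igkc, Jchain and the B cell genes Cd79a and Ms4a1 in each library (x axis, in order of the sum). Jchain rises in the order of the sum, from 7.26 FPKM in control 3 to 139.7 FPKM in irradiated 1, and the B cell genes do not.

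Genes that cut and join the variable segments differed in level. Among those that join them, Xrcc5 was at 5.07 to 8.67 FPKM and Lig4 at 1.86 to 2.50 FPKM. Rag1 and Rag2, which cut the segments during V(D)J recombination, were at 0.0446 FPKM or less in every library, and 0 of 7 tested genes of the recombination and diversification list were called. Dclre1c, which opens hairpin ends during recombination and repairs breaks, was at 3.14, 2.83 and 3.04 FPKM in controls, against 4.38, 3.85 and 4.39 FPKM in irradiated libraries, with all irradiated libraries above the controls (limma adjusted p = 0.160). The surrogate light chain genes Vpreb1 and Igll1, expressed in B cell precursors, were at 0.474 FPKM or less, and Vpreb3, which is kept in mature B cells, was at 7.98 to 32.1 FPKM. Cxcl13, a chemokine that attracts B cells into follicles, was at 1.47, 2.20 and 2.13 FPKM against 12.6, 2.12 and 11.8 FPKM, high in irradiated 1 and 3 (limma adjusted p = 0.252). Ccl21a, a chemokine of lymphoid stroma, was at 66.0, 56.8 and 53.2 FPKM against 40.7, 29.5 and 33.2 FPKM, with all irradiated libraries below the controls (limma adjusted p = 0.0793). Of 9 tested genes of B cell survival and homing 0 were called and 2 were lower at an unadjusted p under 0.05 (10.3% of all genes tested were): Tnfsf13, the plasma cell survival factor APRIL (limma adjusted p = 0.104), and Cxcl12, a chemokine that retains plasma cells (0.221). Of 86 tested genes in all these lists that are not variable segments 0 were called, with 4 higher and 3 lower at an unadjusted p under 0.05, beside 7.41% and 10.3% of all genes tested.

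Other cell types also differed between libraries. Ptcra, of thymocytes, was at 0.0730 FPKM or less. The 10 T cell genes summed to 66.1 to 77.2 FPKM in controls, against 86.3, 54.9 and 105 FPKM in irradiated 1 to 3. The 6 neutrophil genes summed to 74.7 to 497 FPKM in controls, against 218, 4747 and 1396 FPKM in irradiated libraries, and the 7 red cell genes to 1352 to 1715 FPKM against 1447, 6286 and 1614 FPKM. Irradiated 2, the highest in both lists, had the lowest segment sum of its group, and their part in the sum was not tested. The lung markers were high in all libraries. Sftpc, of surfactant protein C, was lower in every irradiated library than in every control (14677 to 16828 FPKM in controls, 8741 to 9588 FPKM in irradiated libraries). So was Scgb1a1, of club cells (30981 to 44203 against 16267 to 26655 FPKM). The groups overlapped for Ager (1058 to 1265 against 897 to 1082 FPKM) and Cdh5 (118 to 147 against 98.5 to 144 FPKM). The part of the lung markers in the segment values was not tested. Between 13467 and 14050 named genes reached 1 FPKM.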

How the data were processed

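PolyA RNA of whole lung was sequenced in 3 control and 3 irradiated libraries. Per the submitters' processing notes, GRCm39, STAR 2.7.6a, fastp and DESeq2 were used, in roles not stated, and the program that made the gene tables is not given in the sources used here. The values used are the FPKM per gene row that the authors deposited, and the deposited mean read coverage (a signal) of each row. The ratio of coverage to FPKM gave the implied depth in Gb (5.10 to 10.4 per library). No read counts were used, so no counting intervals are given. The deposited TPM were not used.

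Rows with a gene name were kept and FPKM summed per gene ID. Unnamed assembled rows, which repeat the span of 111 to 133 members per library, were left out of the sums. In nearly all of these members the unnamed row also had the same FPKM. These members held 53.1% (irradiated 1) to 67.6% (control 2) of the summed FPKM of a library. With the unnamed overlapping rows added, the log2 difference of the sum was 1.14. Levels were compared over libraries with two-sided exact permutation tests. All genes averaging 1 FPKM or more were fitted with limma 3.58.1 (R 4.3.3) on log2(FPKM + 1), with trend and robust variance, and p-values were adjusted over all of them at 0.05. Errors of log2 changes are standard errors, and fold changes on this scale understate those of low genes. The fit was tested on simulated data in which genes varied independently, which the members here do not. Sums and exact tests used Python 3.11.15.

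Segments were named by rule: the 3 highest per library in the heavy and kappa loci, all lambda members, the 8 of highest mean, called members, the 5 of smallest p in each direction, 2 members on each side of the filter, and natural antibody segments. Others, among them Ighv5-15, were named after their values were seen. Of other genes, constant regions, cell type markers and those of smallest p per list were named. The members and lists were chosen with earlier results of these data known. Alternatives covered scaling, pseudocount, filters, unnamed rows, pairing and leaving out libraries.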

Additional observations from a re-analysis of the deposited data

How the results depend on the processing

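Of 108 alternative values, 103 kept the direction of the reported difference or the reported number of members called. A difference counted as kept at any size, such as 0.0037 for the lambda sum without irradiated 1. Without control 2 the differences between irradiated and control libraries in segments holding 50% (-2.83) and 90% (-4.83) of the sum and in the share of the highest segment (1.62 percentage points) changed sign. The number of members called became 2 without irradiated 2 and 1 without irradiated 3. The cause was not tested.

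Leaving out each library in turn gave log2 differences in the sum of 0.13 to 1.91 (heavy 0.21 to 2.10, kappa 0.11 to 1.85, lambda 0.0037 to 1.25). The difference in segments holding 50% was -2.83 to 7.83, in those holding 90% -4.83 to 15.3, in the share of the highest segment -9.45 to 1.62, in segments listed above 0 13.7 to 25.7, and in members called 0 to 2. Without the segment of highest mean, the difference for 50% was 1.67, for 90% 3.67 and for the lambda sum 0.17. The alternatives that leave out control 2 and irradiated 1 together, or the 2 kappa rows of over 1000000 bases, were chosen after seeing the data.

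With the replicate number as a block, the log2 difference of the sum was 1.12 (exact sign permutation p = 0.75). With limma, 0 of the 136 members tested were called. At an unadjusted p under 0.05 there were 27 members, all higher, beside 1623 of 13908 genes, 751 of them higher. Members could enter through the group where they were high, so this count is no support for a difference. The numbers did not pair the libraries: same-numbered libraries correlated at -0.17, -0.54 and -0.28, and not every library correlated best with its own number.

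Depth is known only as implied Gb, so a segment listed at 0 has no limit of detection here.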
